A study of Oryzias latipes with 10 samples.

Results

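The genes cyp3a40, cyp1a, mgst1 and ephx1 encode liver enzymes that chemically modify foreign compounds and some of the body's own molecules. They were followed in the liver of medaka (Oryzias latipes), a small fish of fresh water. The 4 genes were found by their symbols, as 4 of the 25795 genes in the deposited table, with the gene IDs 100125817, 100125806, 101163699 and 101172051 in the order given. Wild-type fish (WT) and fish with a knockout of phod1, written pd1 in the sample labels (KO), gave 5 libraries each. Both groups had been kept under long days, and livers were sampled at noon. The labels give neither the knockout allele nor sex, age or batch of the fish. Libraries are numbered 1 to 5 within each group, and nothing says that each came from its own animal. A p-value therefore reflects only how much these samples varied, which may be technical.

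Biotransformation runs in steps. Cytochrome P450 enzymes of families 1 to 3 sit in the membrane of the endoplasmic reticulum and add oxygen to a substrate (phase I). Transferases then attach a water-soluble group such as glutathione (phase II), and transporters export the product. Enzymes of the CYP3A group oxidise many drugs and steroids. CYP1A oxidises planar aromatic hydrocarbons, and its gene is switched on by ligands of the aryl hydrocarbon receptor, which makes it a widely used marker of pollutant exposure in fish liver. The product of ephx1 is microsomal epoxide hydrolase, which opens reactive epoxides, among them some formed by P450 enzymes, to diols. The product of mgst1 is a membrane-bound glutathione transferase that in mammals also reduces lipid peroxides.

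Values are in RPM, reads per 1000000 reads, from Lasy-Seq, a 3' RNA sequencing method, and are not divided by transcript length. The libraries held 4542721 to 10112313 reads, so that a single read was worth 0.0989 to 0.220 RPM. No entry of the gene name table is called phod1 or pd1, so the knockout was not checked at its own transcript. As a check of the tissue, 5 hepatocyte markers (hpx, fga, fgb, fgg and rbp4) were found and together reached 7682 to 18299 RPM in WT and 18752 to 24848 RPM in KO. The groups did not overlap in this sum or in hpx, which averaged 5159 RPM in WT and 12080 RPM in KO, but overlapped in each of the other 4 markers, and rbp4 had a log2 fold change of 0.03. In the tests described next, 1 of the 5 markers, hpx, passed as higher on the deposited RPM, 4 of 5 with TMM scaling and 4 of 5 in DESeq2. Their part in the results on the biotransformation genes was not tested. The exocrine pancreas marker cpb1 ranged from 12.2 to 208 RPM in WT and from 3.52 to 71.9 RPM in KO. The 2 intestinal markers summed to 2.42 to 105 RPM in WT and 1.76 to 4.33 RPM in KO, and those of leukocytes (3 found) to 40.1 to 187 and 36.1 to 54.8 RPM. Bile duct markers (3 found) summed to 84.4 to 112 RPM in WT and 99.3 to 154 RPM in KO, those of stellate cells and fibroblasts (5 found) to 19.4 to 37.9 and 16.7 to 33.4 RPM, and those of endothelium (4 found) to 3.98 to 16.1 and 8.84 to 13.7 RPM. Oocyte markers (4 found) summed to at most 4.35 RPM and the 1 muscle marker found, acta1, to at most 2.45 RPM in any library, and no marker of erythrocytes or adipocytes was found by symbol. In whole liver, fewer cells of a type and less RNA per cell cannot be told apart.

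All 4 genes had a higher mean in KO than in WT, but none of them passed the test over the whole table on RPM as deposited, and the groups overlapped in each. The test was limma on log2(RPM + 1) with Benjamini-Hochberg adjustment over 14984 genes, where 2.85% of all tested genes passed, 1.17% as higher in KO and 1.68% as lower. At an unadjusted p under 0.05 in limma lay 2 of the 4 genes, cyp3a40 and mgst1, against 2453 of the 14984 tested genes in both directions together. The same 2 genes passed as higher when libraries were rescaled by TMM (trimmed mean of M-values), where 2.97% of all genes passed, 2.09% as higher and 0.881% as lower. With median-of-ratios scaling 1 of the 4 passed, cyp3a40, against 2.93% of all genes, 1.98% higher and 0.954% lower. Of the count-based tests on 9 libraries, DESeq2 called cyp3a40 and mgst1, against 3.26% of all genes, 2.07% higher and 1.19% lower. In edgeR 0 of the 4 passed, and 1.19% of all genes passed, 0.874% higher and 0.314% lower. At an unadjusted p under 0.05 in edgeR lay 3 of the 4, against 1800 of the 14984 tested genes. A complete separation of the groups, with all 5 KO libraries above all 5 WT libraries, was seen in 1.03% of all tested genes, and in 2.6% all KO libraries lay below.

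**Figure D1:**
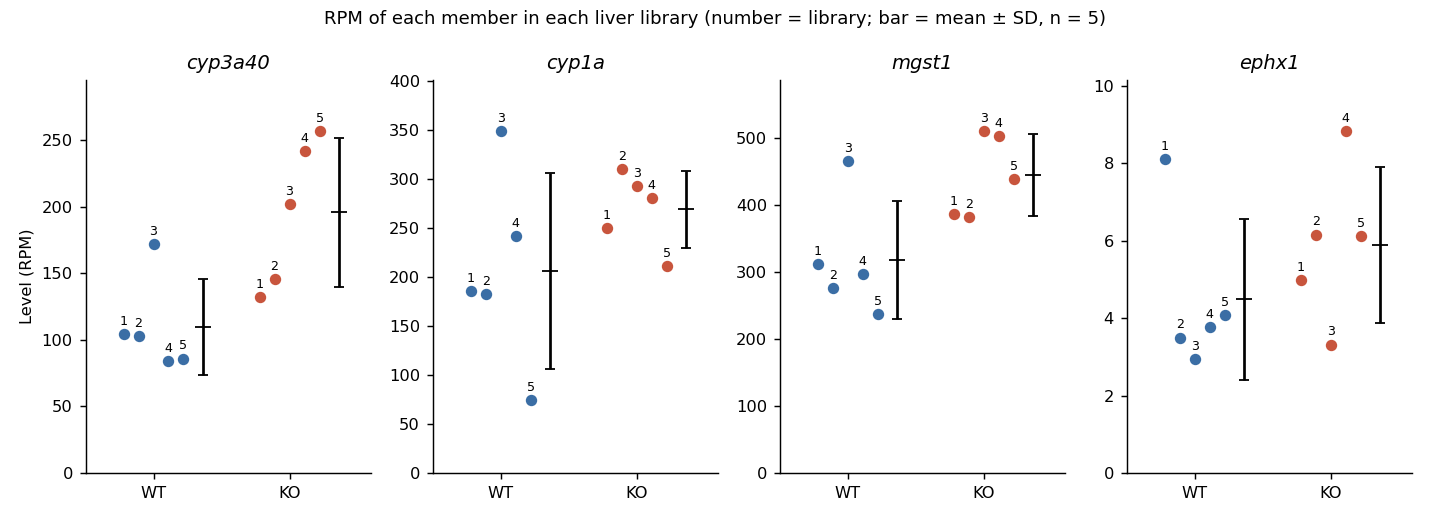
Level of each of the 4 genes in RPM (vertical axes, starting at 0) in the 5 WT (blue) and 5 KO (red) liver libraries. Points are numbered by library and black bars are mean ± SD, n = 5. WT3 is the highest WT library for cyp3a40, cyp1a and mgst1 and the lowest for ephx1.

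The gene cyp3a40 showed the largest of the 4 differences. Its level was 105, 103, 172, 83.8 and 86.0 RPM in WT1 to WT5. In KO1 to KO5 it was 132, 146, 202, 242 and 257 RPM. All KO libraries lay above the WT mean and 3 of them above every WT library, while 4 WT libraries lay below every KO library and WT3 lay among the KO values. The mean was 110 ± 36.02 RPM in WT and 196 ± 55.9 RPM in KO (SD, n = 5 per group). The log2 fold change was 0.83 ± 0.23 (SE; 95% interval 0.35 to 1.31), with a limma adjusted p of 0.0591. TMM scaling gave 1.04 ± 0.23 and passed (limma adjusted p = 0.0176), though with 1 library left out it passed in 6 of 10 fits, with limma adjusted p-values reaching 0.0657. On the deposited RPM it was 1.00 without WT3 and passed (limma adjusted p = 0.00536), as it did without KO1 (0.0361) and without KO2 (0.0431). It did not pass in the other 7 of 10 such fits, with limma adjusted p-values up to 0.166, without WT4. Counting error played a small part here, since 555 to 2028 reads stood behind each value in the 9 libraries other than KO5.

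A second gene of the same group, cyp3a, lies next to cyp3a40 in the RefSeq gene table, and reads of closely related neighbours can be assigned to the wrong copy. How alike the 2 transcripts are was not examined, so the split between them is uncertain. The level of cyp3a was 576, 430, 757, 351 and 334 RPM in WT1 to WT5 and 567, 497, 712, 821 and 832 RPM in KO1 to KO5. Libraries high in one gene were high in the other: after subtracting each group's mean, Pearson's r of the log2 values was 0.913 over 10 libraries, as a description. The log2 fold change of cyp3a was 0.53 ± 0.23, with a limma adjusted p of 0.250 (0.114 with TMM). Summed as 1 gene, an alternative chosen after the values were seen, the pair averaged 599.9 ± 212 RPM in WT and 882 ± 205 RPM in KO and did not pass (log2 difference 0.59 ± 0.22, limma adjusted p = 0.191). Without WT3, cyp3a alone passed, at 0.70 (limma adjusted p = 0.0443), in a fit that called 365 genes higher and 479 lower over the whole table. In the other 9 of 10 fits with 1 library left out, cyp3a did not pass (limma adjusted p up to 0.474).

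The balance between the pair also differed slightly between the groups. Of all reads assigned to either gene, cyp3a40 took 15.4% to 20.5% in WT (18.6% ± 1.92, SD, n = 5) and 18.9% to 23.6% in KO (22.02% ± 1.84, n = 5). KO1, at 18.9%, lay within the WT range, and the other 4 KO libraries lay above it. The within-library difference of the log2 values was 0.30 larger in KO, with an exact two-sided permutation p of 0.0317 (n = 5 per group, single comparison, not adjusted), a test added after the values were seen. This difference does not depend on how a library is scaled, apart from the pseudocount. Its p rose above 0.05 in 4 of the 10 comparisons that left out 1 library, at up to 0.0635 (exact permutation), and without WT3 and KO2 together, at 0.114.

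**Figure D2:**
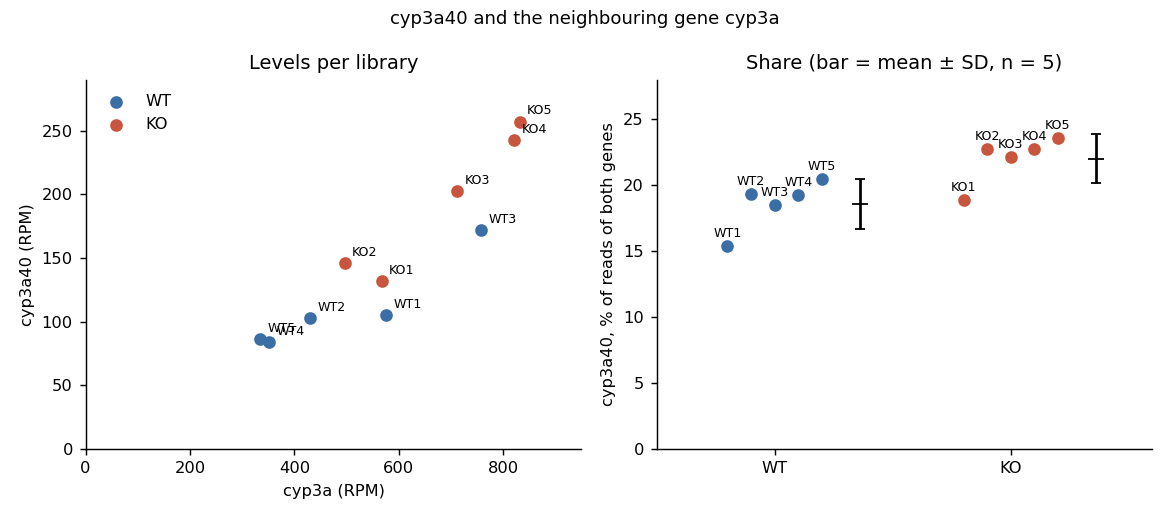
Left, cyp3a40 against the neighbouring gene cyp3a in RPM, 1 point per library (WT blue, KO red). Right, the share of the reads of both genes assigned to cyp3a40 in percent, with mean ± SD (n = 5). Levels of the pair rise together over the libraries, and KO1 is the 1 KO library whose share lies within the WT range of 15.4% to 20.5%.

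For cyp1a the WT libraries were spread widely and the KO libraries closely. Values were 186, 182, 349, 242 and 74.5 RPM in WT1 to WT5. In KO1 to KO5 they were 250.0, 310, 293, 280 and 212 RPM. On the deposited RPM no KO library exceeded WT3, the highest of all 10, and 3 WT libraries lay below every KO library. After TMM scaling KO1 and KO4, both at 320 RPM, lay above WT3 at 314 RPM. Means were 207 ± 100.1 RPM in WT and 269 ± 39.0 RPM in KO, so that the SD was 48.4% of the mean in WT and 14.5% in KO. This difference in spread was not tested. The log2 fold change was 0.53 ± 0.29 (95% interval -0.07 to 1.13; limma adjusted p = 0.376), and the data therefore allow no change as well as a rise of 2.19-fold, the upper end of the interval. Without WT5, the library with the lowest value, the log2 fold change was 0.21, and without WT3 it was 0.76, neither passing (limma adjusted p = 0.676 and 0.0982). WT5 also stood apart in markers of other tissues, with the intestinal marker fabp2 at 97.0 RPM against at most 2.87 RPM in any other library and the pancreas marker cpb1 at 208 RPM against at most 74.8 RPM. Their part in the cyp1a value of WT5 was not tested. TMM scaling gave 0.74 ± 0.27 with a limma adjusted p of 0.181, and combined with leaving out WT3, a combination added after the values were seen, 0.96 with a limma adjusted p of 0.0214. Over the whole table that combination called 555 genes higher and 324 lower, against 313 and 132 with TMM on all 10 libraries.

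In mgst1 the pattern resembled that of cyp3a40. It stood at 312 RPM in WT1, 276 in WT2, 466 in WT3, 298 in WT4 and 237 in WT5. KO1 to KO5 held 387, 382, 510, 504 and 439 RPM. All KO libraries lay above 4 of the 5 WT libraries and 2 of them also above WT3. The mean was 318 ± 87.6 RPM in WT and 445 ± 61.4 RPM in KO. The difference of 0.51 ± 0.19 on the log2 scale (95% interval 0.12 to 0.90) did not pass (limma adjusted p = 0.172). The TMM value of 0.72 ± 0.19 passed narrowly, at a limma adjusted p of 0.0498, and the median-of-ratios value of 0.71 ± 0.19 missed narrowly, at 0.0537. With TMM and 1 library left out, mgst1 passed in 2 of 10 fits, those without WT3 or KO2. Leaving out WT3 gave 0.66 on the deposited RPM, with a limma adjusted p of 0.0201. Leaving out any other single library did not bring mgst1 past the threshold, with limma adjusted p-values up to 0.330.

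The gene ephx1 was represented by few reads, 16 to 74 in each of the 9 libraries other than KO5. Its values in WT1 to WT5 were 8.12, 3.50, 2.95, 3.78 and 4.08 RPM. Those of KO1 to KO5 were 5.00, 6.16, 3.32, 8.84 and 6.13 RPM. Both groups covered nearly the same range, but in WT its upper end rested on WT1 alone, with the next library at 4.08 RPM. WT1 lay above all KO libraries but KO4. The other WT libraries lay below all KO libraries but KO3, at 3.32 RPM. With means of 4.49 ± 2.08 RPM in WT and 5.89 ± 2.01 RPM in KO, the log2 fold change was 0.35 ± 0.34 (95% interval -0.36 to 1.05; limma adjusted p = 0.654). The interval reaches from a ratio of 0.781 to one of 2.07, and the SD was 46.3% of the mean in WT and 34.2% in KO. The log2 fold change without WT1 was 0.55 and without KO4 0.20, on the log2(RPM + 1) scale, which understates changes of low genes.

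**Figure D3:**
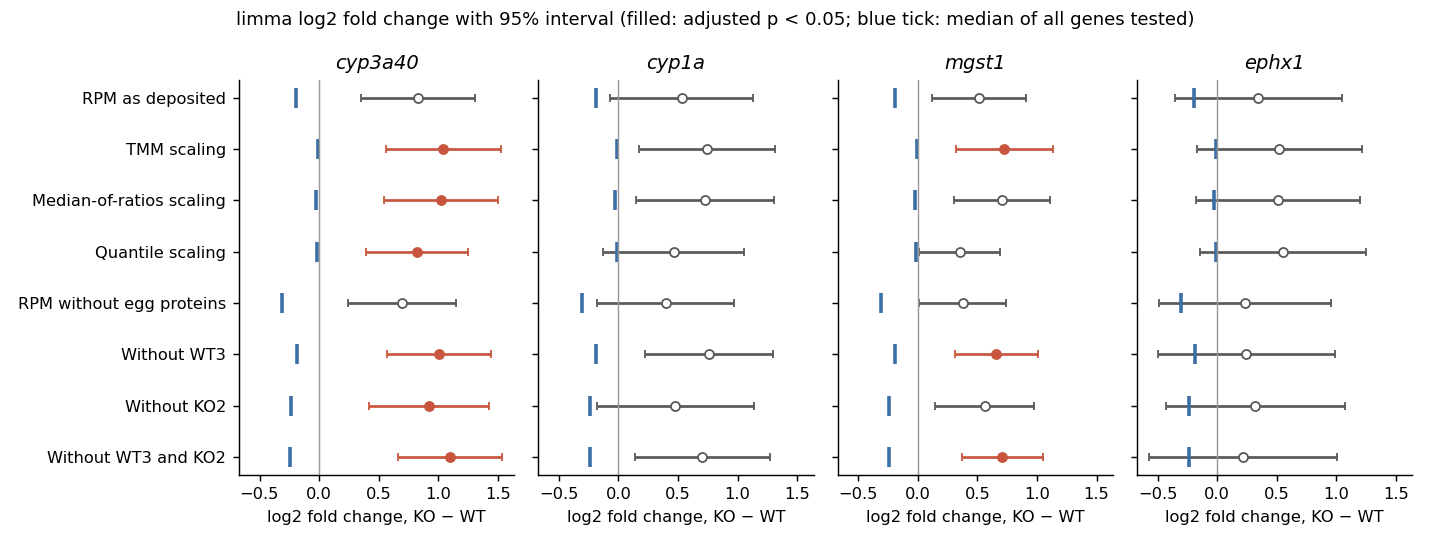
log2 fold change, KO minus WT, of the 4 genes (points) with 95% intervals from limma on RPM as deposited, under 4 other scalings and without WT3, KO2 or both. Filled red points passed an adjusted p of 0.05 and the blue ticks are the median of all genes tested in the same fit. Every point estimate shown lies above 0; cyp1a and ephx1 never passed in the settings shown.

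TMM scaling moved all 4 values upwards, whereas quantile scaling lowered mgst1 to 0.35 and raised ephx1 to 0.55. On the deposited RPM the median log2 fold change of all tested genes was -0.19, and after TMM scaling it was -0.01. Relative to that median, the 4 genes therefore stood about as far above other genes under both scalings, with the deposited values at or above the level reached by 87.3% (ephx1), 92.2% (mgst1), 92.6% (cyp1a) and 97.0% (cyp3a40) of tested genes. The TMM factor of KO1 was the lowest of all, at 0.782, against 0.877 to 1.12 in the other libraries. Dividing by it raised cyp3a40 in KO1 from 132 to 169 RPM. Removing the 3 egg protein genes vit-6, ol-vit1 and 1-sf from the total before computing RPM moved the values the other way, to log2 fold changes of 0.70 for cyp3a40, 0.39 for cyp1a, 0.38 for mgst1 and 0.23 for ephx1, with a median over all genes of -0.31, and none of the 4 passed in limma.

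Whether the 4 genes differed from one another in their response was tested within libraries, by the difference of their log2 values. The largest of the 6 pairwise contrasts was that of cyp3a40 over ephx1, 0.48 larger in KO, with an exact two-sided permutation p of 0.238 (0.714 adjusted over the 6 pairs; n = 5 per group). The contrast of cyp3a40 over mgst1 was 0.32, with an exact permutation p of 0.0714 (0.429 adjusted), and without KO1 it was 0.40 at an adjusted exact permutation p of 0.0476. That of cyp1a over mgst1 was 0.02, with an exact permutation p of 0.968. No pair passed with all 10 libraries, where 5 against 5 allow p-values down to 0.00794, and a p that misses the threshold does not show that 2 genes responded alike.

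Library by library, mgst1 varied with cyp3a40 and with cyp1a, while cyp3a40 and cyp1a were less alike. After subtracting each group's mean from the log2 values, Pearson's r over the 10 libraries was 0.821 for cyp3a40 with mgst1, 0.740 for cyp1a with mgst1 and 0.374 for cyp3a40 with cyp1a. On the deposited RPM, KO5 was the highest KO library for cyp3a40 and the lowest for cyp1a. After TMM scaling it was still lowest for cyp1a, but for cyp3a40 it stood at 271 RPM, below KO4 at 276 RPM. For ephx1 the r was -0.0045 with cyp3a40, -0.18 with cyp1a and -0.18 with mgst1. These are descriptions over libraries that share a total, which couples all genes of a library. WT3 and KO2 stood apart from the other libraries of their groups in egg proteins, the yolk and egg envelope precursors made by liver. The share of reads from vit-6, ol-vit1 and 1-sf was 10.4% to 14.0% in 4 WT libraries and 2.77% in WT3, and 0.428% to 0.593% in 4 KO libraries and 6.95% in KO2. WT3, with the lowest egg protein share of WT, had the highest WT values of cyp3a40, cyp1a and mgst1. On the deposited RPM KO2, with the highest share of KO, had the lowest KO value of mgst1 and the second lowest of cyp3a40, but the highest of cyp1a. After TMM scaling KO2 had the lowest KO values of mgst1 (344 RPM) and cyp3a40 (131 RPM). Its cyp1a value was then 279 RPM, with only KO5 lower among KO, at 224 RPM. The part of the egg protein level in the differences of the 4 genes was not tested. Without WT3 and KO2 together, cyp3a40 had a log2 fold change of 1.097 (limma adjusted p = 0.00255) and mgst1 of 0.71 (0.0113). In that fit cyp1a at 0.70 and ephx1 at 0.22 did not pass (limma adjusted p = 0.140 and 0.778). Over the whole table it called 424 of the 14984 tested genes higher and 621 lower, against 1.17% and 1.68% with all 10 libraries. WT3 and KO2 were singled out from these same data, and WT3 had the highest WT values of cyp3a40 and mgst1. How far this choice lowered the p-values was not tested.

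**Figure D4:**
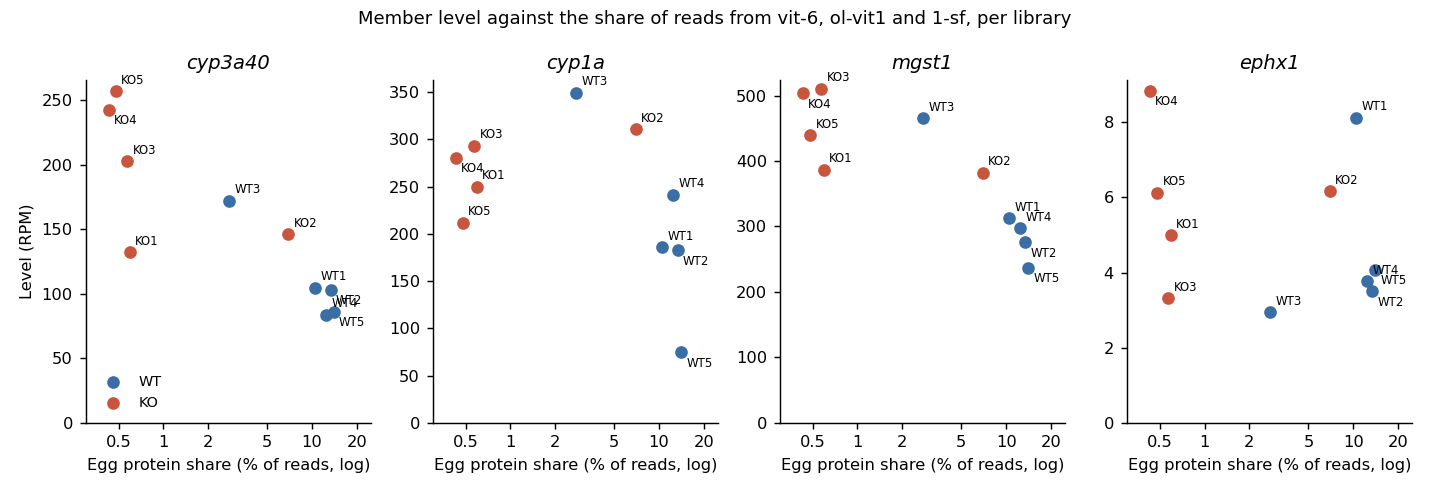
Level of each of the 4 genes in RPM (vertical axes, linear) against the percentage of reads from the egg protein genes vit-6, ol-vit1 and 1-sf (horizontal axis, logarithmic), 1 point per library. WT3 (2.77%) and KO2 (6.95%) lie between the other WT libraries (10.4% to 14.0%) and the other KO libraries (0.428% to 0.593%).

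The genes whose library-to-library pattern came closest to each member were taken by the same within-group r, limited to tested genes with a symbol, 5 per member. For cyp3a40 these were cygb1, dbt, acadm, wisp1 and pah, with r of 0.953 to 0.956. Among them dbt, acadm and pah encode enzymes of branched-chain amino acid, fatty acid and phenylalanine breakdown, and cygb1 a cytoglobin. Since group means are subtracted, this r does not measure a difference between KO and WT. Log2 fold changes were -0.0027 for cygb1, -0.35 for dbt, -0.40 for acadm, 0.60 for pah and 1.39 for wisp1, and only wisp1 passed in limma. The nearest to mgst1 were stx7, dpyd, pgm1, pygl and ddah1, with r of 0.934 to 0.958. Of these, pgm1 and pygl encode enzymes of glycogen use and dpyd one of pyrimidine breakdown. The nearest to cyp1a were smarcc1, dusp10, caskin2, st3gal1 and cdk18 (r of 0.937 to 0.965), and to ephx1 lrrfip2, ajap1, mfsd12, fmc1 and armh3 (0.853 to 0.952). Of these 20 genes 4 passed as higher in KO in limma, where 1.17% of all tested genes did: pygl at a log2 fold change of 1.77 ± 0.28, caskin2 at 1.45 ± 0.29, wisp1 at 1.39 ± 0.27 and pgm1 at 1.24 ± 0.24. The 20 genes were chosen by r alone, as the highest r for each member among 8058 tested genes with a symbol, over 10 libraries. The 1.17% also covers 6926 tested genes known only by a LOC number, and the share among genes with a symbol was not computed. Genes picked to vary together over the same libraries do not pass independently, and an excess of calls was not tested.

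Other genes of biotransformation were read from 7 lists, matched by symbol. Genes known only by a LOC number have no description in the name table, so the lists hold only part of each family. Of 56 tested genes on the lists, 5 passed as higher in KO and none as lower in limma on the deposited RPM, or 8.93% and 0%, against 1.17% and 1.68% of all tested genes. At an unadjusted p under 0.05 in limma, 9 were higher and 3 lower, against 2453 of the 14984 tested genes in both directions together. In edgeR 3 passed as higher and 0 as lower, against 0.874% and 0.314% of all tested genes. DESeq2 called 8 and 0, against 2.07% and 1.19%. The median log2 fold change over the lists was 0.06, against -0.19 for all tested genes. Since the whole table was shifted down on the deposited RPM, 32.7% of all tested genes lay above 0, and 49.0% with TMM.

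Of P450 genes of families 1 to 3 other than the members, 2 were matched and tested, cyp3a and cyp2p3, and cyp2p3 passed. Its level was 9.79 to 47.9 RPM in WT and 24.7 to 79.1 RPM in KO. The highest WT library was WT3 and the lowest KO library KO2, and the groups overlapped. Means were 20.5 ± 15.8 and 52.7 ± 19.9 RPM, giving 1.47 ± 0.36 on the log2 scale (limma adjusted p = 0.0311). With 1 library left out it no longer passed in 8 of 10 fits (limma adjusted p up to 0.0989), nor in edgeR (cyp2p3 KO minus WT, adjusted p = 0.0948), with robust variances (0.0769) or without the filter on low values (0.119). The list of P450 partners and heme genes was matched by 2 heme-binding partner genes (pgrmc1 and pgrmc2), by genes of heme synthesis, which makes the prosthetic group of P450 enzymes, and by the biliverdin reductase genes blvra and blvrb, which act after heme breakdown. No gene of an electron donor of P450 enzymes was matched by symbol. The list held no called gene among 11 tested, with 0 at an unadjusted p under 0.05 in limma and 0 called by edgeR or DESeq2. The heme synthesis gene alas1 averaged 57.9 ± 19.99 RPM in WT and 53.1 ± 6.75 RPM in KO, and the heme-binding P450 partner gene pgrmc1 76.7 ± 19.0 and 81.6 ± 10.5 RPM. Named after its values were seen, pgrmc2 ranged from 15.1 to 20.2 RPM in WT and from 7.26 to 15.03 RPM in KO. On the deposited RPM all its KO libraries lay below all WT libraries, as in 2.6% of all tested genes, but it did not pass (log2 fold change -0.51, limma adjusted p = 0.320). TMM scaling brought its log2 fold change to -0.30 (limma adjusted p = 0.685).

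Of 13 other phase I enzymes 2 passed as higher, against 1.17% of all tested genes, and 12 had a log2 fold change above 0, against 32.7%. The aldehyde dehydrogenase gene aldh9a1 rose from 520 ± 169 to 1063 ± 161 RPM, or 1.08 ± 0.21 on the log2 scale (limma adjusted p = 0.0070). It ranged from 356 to 737 RPM in WT and from 897 to 1265 RPM in KO. The monoamine oxidase gene maob rose from 90.2 ± 18.9 to 182 ± 36.6 RPM (1.00 ± 0.20, limma adjusted p = 0.0080), with 72.7 to 111 RPM in WT and 131 to 219 RPM in KO. In both, all KO libraries lay above all WT libraries, WT3 included, as in 1.03% of all tested genes. Both passed whichever 1 of the 10 libraries was left out. With TMM 5 genes passed as higher, against 2.09% of all tested genes. The 3 that joined were named after their values were seen: the alcohol dehydrogenase gene adh5 that has adh8 as a synonym (deposited RPM 935 ± 502 and 1877 ± 391), the mitochondrial aldehyde dehydrogenase gene aldh2 (201 ± 55.0 and 292 ± 41.3) and the carbonyl reductase gene cbr1 (39.5 ± 6.20 and 60.8 ± 11.1). Their limma adjusted p with TMM was 0.0325, 0.0333 and 0.0269. In cbr1 too, all KO libraries lay above all WT libraries on the deposited RPM, where it did not pass (limma adjusted p = 0.114). Another tested gene with the symbol adh5 averaged 7.45 RPM in WT and 11.3 RPM in KO. It did not pass on the deposited RPM or with TMM (limma adjusted p = 0.334 and 0.202). The soluble epoxide hydrolase gene ephx2, named as a relative of ephx1 by function, averaged 58.5 ± 22.5 RPM in WT and 74.9 ± 9.09 RPM in KO and did not pass (0.42 ± 0.23, limma adjusted p = 0.377).

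**Figure D5:**
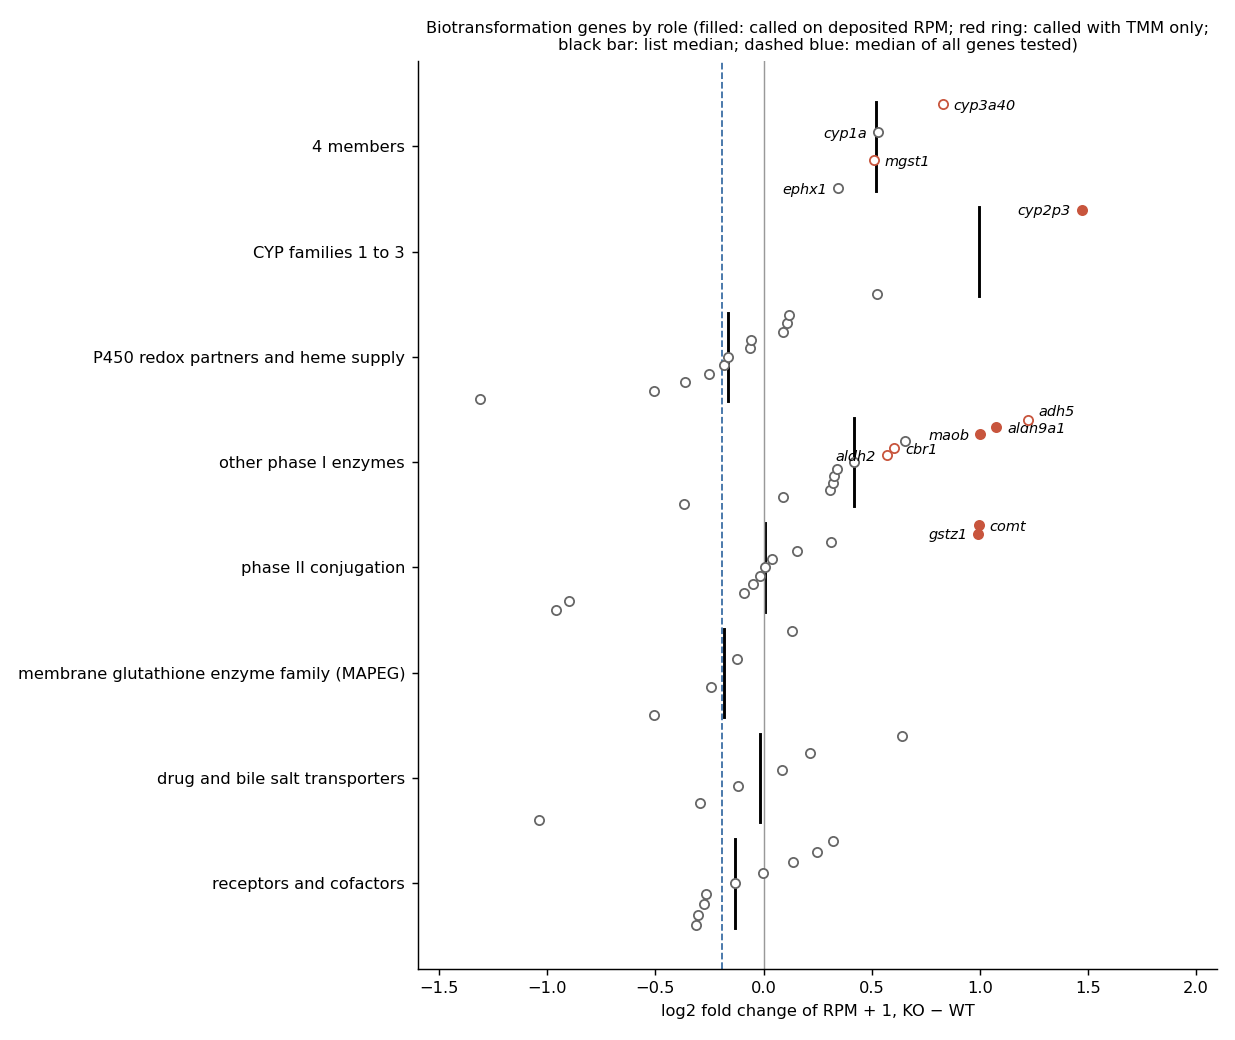
log2 fold change of RPM + 1, KO minus WT (horizontal axis), of the 4 genes and of the tested genes on 7 lists of biotransformation genes, 1 point per gene. Filled points passed limma on the deposited RPM, red rings passed with TMM scaling alone, black bars are list medians and the dashed line is the median of all tested genes, -0.19. The 5 filled genes are cyp2p3, aldh9a1, maob, comt and gstz1.

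Of 11 phase II genes tested, 2 passed as higher, against 1.17% of all tested genes. A log2 fold change above 0 was seen in 6, against 32.7% of all tested genes, and 9 lay above the median of all tested genes. The catechol methyltransferase gene comt rose from 67.1 ± 19.3 to 135 ± 36.4 RPM (log2 fold change 1.00 ± 0.23, limma adjusted p = 0.0210). The glutathione transferase gene gstz1, whose product acts in tyrosine breakdown, rose from 269 ± 113 to 515 ± 109 RPM (0.99 ± 0.23, limma adjusted p = 0.0248). In each, 4 KO libraries lay above every WT library, and each no longer passed in 5 of 10 fits with 1 library left out, where the limma adjusted p reached 0.0719 for comt and 0.0801 for gstz1. Without the filter on low values neither passed (comt KO minus WT, limma adjusted p = 0.0652; gstz1 KO minus WT, 0.0905), and gstz1 did not pass in edgeR (adjusted p = 0.0892). The gene ugdh, whose product makes the donor for glucuronidation, went the other way without passing, from 43.0 ± 9.56 to 23.1 ± 7.57 RPM (-0.90 ± 0.25, limma adjusted p = 0.0551), and is named after its values were seen.

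In the protein family of mgst1, known as MAPEG, none of 4 other tested genes passed in limma, with 0 at an unadjusted p under 0.05 and 0 called by edgeR or DESeq2. The glutathione transferase gene mgst3 stood at 68.1, 87.9, 78.9, 70.4 and 89.8 RPM in WT1 to WT5 and at 54.1, 92.2, 92.8, 100.2 and 101 RPM in KO1 to KO5. On the deposited RPM KO1 was the lowest of all 10, and the other 4 KO libraries were higher than every WT library. After TMM scaling KO1 at 69.3 RPM lay above WT1 (61.8 RPM) and WT4 (62.8 RPM), and KO2 at 82.9 RPM lay below WT5 at 92.1 RPM. The log2 fold change of mgst3 on the deposited RPM was 0.13 ± 0.20 (limma adjusted p = 0.789), and the leukotriene synthase gene ltc4s had -0.50 ± 0.33 (0.483).

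Transporters and receptors held no called gene in limma, edgeR or DESeq2. Of 6 tested transporters 1, abcc10, reached an unadjusted p under 0.05 in limma, against 2453 of the 14984 tested genes in both directions together. Named after its values were seen, abcc10 was lower in KO (log2 fold change -1.04, limma adjusted p = 0.294). The organic anion transporter gene slco2a1 averaged 42.7 ± 24.1 RPM in WT and 46.0 ± 14.0 RPM in KO, and abcb1, the gene of the drug efflux pump P-glycoprotein, 6.10 ± 2.57 and 5.38 ± 1.65 RPM. Of 9 tested receptors and cofactors 0 reached an unadjusted p under 0.05 in limma. The chaperone gene hsp90ab1, whose product keeps the aryl hydrocarbon receptor ready to bind ligand, averaged 1565 ± 331 and 1957 ± 443 RPM, and its cochaperone gene ptges3 48.1 ± 10.9 and 39.9 ± 11.1 RPM. For the receptor itself, only a gene named ahr was matched by symbol, listed at 0 in all libraries but KO5, where it had 1.19 RPM. Any receptor gene under another symbol or a LOC number would have been missed, so the level of the receptor in these livers is not known. Also on these lists are 2 genes linked to the same receptor. Its repressor gene ahrr and its target gene tiparp averaged 2.87 ± 2.00 and 6.84 ± 2.17 RPM in WT and 1.93 ± 1.09 and 8.18 ± 1.74 RPM in KO, with limma adjusted p-values of 0.765 and 0.716.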

How the data were processed

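Liver RNA of 5 WT and 5 KO libraries was analysed, grouped and numbered by sample title. Libraries were prepared by Lasy-Seq, per the labels' protocols. BWA (0.7.17-r1188) and Salmon (1.4.0) appear in the submitters' processing notes without a role. The genome build is not given in the sources used here. RPM per gene, deposited by the authors for 25795 genes, sum to 1000000 in each library. Every ID matched the RefSeq gene table of assembly ASM223467v1, from which names and gene order were taken.

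Genes reaching 1 RPM in 5 or more libraries (14984, including all 4 members) were tested as log2(RPM + 1) with limma 3.58.1 in R 4.3.3 (variance trend, no covariates, two-sided, Benjamini-Hochberg, threshold 0.05). Values were whole multiples of 1 read to within 1e-06 of a read. Reads recovered from them were tested with edgeR 4.0.16 and DESeq2 1.42.0 without KO5, omitted as a precaution because its step lies near 0.1 RPM. All pairs of libraries within a group differed by more than sampling noise (chi-square per degree of freedom at least 14.6). The fit was also run on simulated counts, drawn independently for each gene and library. No simulated library was set apart as WT3 and KO2 were, so that run does not cover such libraries. Permutation tests were exact, in Python 3.11.15 with numpy 2.4.6, and figures were drawn with matplotlib 3.10.9.

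The members, lists and alternatives were chosen with earlier results of these data known. Named are the members, up to 4 called genes of each list or otherwise its 2 most abundant, the 5 genes most like each member, and the egg protein genes. Other genes are named as stated beside them. Protein identity, also part of that rule, was not used here.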

Additional observations from a re-analysis of the deposited data

Results flagged for a closer look

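In 54 groups of 5 libraries examined with Dixon's gap test, which by chance flags about 1 group in 20, 4 values lay far from the rest of their group. The value of cyp3a40 in WT3, 172 RPM, was the highest of WT, with the next at 105 RPM. For cyp2p3 it was again WT3, at 47.9 RPM with the next at 19.3 RPM. WT3 also had the lowest egg protein share of WT, 2.77%, and the part of that share in these values was not tested. The value of ephx1 in WT1, 8.12 RPM, rested on 47 reads, with the next at 4.08 RPM. The value of mgst3 in KO1, 54.1 RPM, was the lowest of KO, with the next at 92.2 RPM. KO1 had the lowest TMM factor, and after division by it mgst3 stood at 69.3 RPM, with the next KO library at 82.9 RPM.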

How the results depend on the processing

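All 4 genes kept a positive log2 fold change in every alternative that gave a value. Apart from leaving out single libraries, cyp3a40 passed in 7 of 14, mgst1 in 4 of 14, cyp1a in 0 of 14 (adjusted p from 0.140) and ephx1 in 0 of 12 (adjusted p from 0.4999). For ephx1 the 5 RPM filter gave no value and DESeq2 no adjusted p. The gene cyp3a40 passed with TMM at 1.04, median-of-ratios at 1.03, quantile scaling at 0.82, robust variances at 0.83, library weights at 1.002, DESeq2 at 0.93 and without WT3 and KO2 at 1.097. The gene mgst1 passed with TMM at 0.72, library weights at 0.60, DESeq2 at 0.71 and without WT3 and KO2 at 0.71. Leaving out single libraries gave 0.72 to 1.00 for cyp3a40, 0.21 to 0.76 for cyp1a, 0.42 to 0.66 for mgst1 and 0.20 to 0.55 for ephx1. Combined with TMM, an addition made after seeing the data, single omissions gave 0.93 to 1.20 for cyp3a40, 0.45 to 0.96 for cyp1a and 0.66 to 0.86 for mgst1. In that combination cyp3a40 passed without WT2 (1.03), WT3 (1.20), WT5 (1.004), KO1 (1.11), KO2 (1.20) or KO3 (1.03), cyp1a without WT3 (0.96), and mgst1 without WT3 (0.86) or KO2 (0.84). TMM without WT3 and KO2 gave 1.36, 0.97 and 0.98 for cyp3a40, cyp1a and mgst1, all passing, and 0.44 for ephx1, which did not pass. In that fit 756 of the 14984 tested genes passed as higher and 353 as lower. With TMM these counts were 555 and 324 without WT3 and 462 and 138 without KO2, against 313 and 132 with all 10 libraries.

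Counts over all genes, 175 higher and 1.68% of genes lower on the deposited RPM, moved with the setting. They were 73 and 103 without a filter on low values, 313 and 132 with TMM, 296 and 143 with median-of-ratios and 322 and 435 with library weights. Without WT3 and KO2 they were 424 and 621. Quantile scaling gave 165 lower, RPM without egg protein genes 424 lower, edgeR 131 higher and 47 lower, and DESeq2 310 higher. Leaving out single libraries gave 94 to 365 higher and 104 to 479 lower, both most without WT3.

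Same-numbered libraries did not deviate together (r from -0.08 to 0.00083; 0 of 5 correlated best with its own number). With a replicate block, no member passed (adjusted p of 0.0877 for cyp3a40, 0.293 for cyp1a, 0.196 for mgst1 and 0.680 for ephx1), 145 genes were higher and 190 lower, and the exact p of cyp3a40 over cyp3a was 0.0625, the smallest a paired permutation of 5 can give.

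Among gene pairs, cyp1a minus mgst1, KO minus WT, was -0.0051 without WT3 and KO2. Leaving out single libraries gave 0.11 to 0.55 for cyp3a40 over cyp1a, 0.21 to 0.40 for cyp3a40 over mgst1, 0.28 to 0.76 for cyp3a40 over ephx1, -0.21 to 0.13 for cyp1a over mgst1, -0.13 to 0.52 for cyp1a over ephx1 and -0.043 to 0.41 for mgst1 over ephx1. Of list genes that never passed, alas1 KO minus WT turned positive with TMM (0.15), median-of-ratios (0.13), quantile scaling (0.051), edgeR (0.057), DESeq2 (0.045) and without single libraries (-0.24 to 0.097), and abcb1 KO minus WT with TMM (0.070), median-of-ratios (0.055), quantile scaling (0.10), edgeR (0.033), without WT3 and KO2 (0.098) and without single libraries (-0.29 to 0.047). Without egg protein genes, pgrmc1 was -0.014 and mgst3 KO minus WT was -0.0038. Leaving out single libraries gave -0.044 to 0.21 for pgrmc1 and -0.032 to 0.49 for slco2a1. The cause of these changes was not tested. The fewest reads stood behind ephx1 among the members, 16 to 74 per library.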
